A study of Mus musculus with 2 samples.

Results

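Scg2, Ptprn, Resp18, Ecel1 and Atp6v1h were followed as genes of the secretory granule and its supply in single LβT2 cells treated with gonadotropin-releasing hormone (GnRH) or vehicle. They are 5 of the 1068 genes analysed here, taken by symbol, and they were selected on measured values: their levels, ratios, shares of cells, spread and correlations were known when they were chosen, and these are therefore given as a description. LβT2 is an immortalized mouse gonadotrope line of the anterior pituitary. Its cells proliferate because luteinizing hormone β regulatory DNA drives a viral oncogene in them, and they therefore model the mature gonadotrope only in part. Both cultures were at passage 15 and were grown in the same serum-containing medium. One received 2 nM GnRH and the other vehicle, each for 40 min, before trypsinization and droplet capture for 3′ single-cell (SC) RNA-seq. Only 1 library was made per treatment, so no difference between the libraries has a replicate check and no test was run.

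Gonadotropes store luteinizing and follicle-stimulating hormone in dense-core granules and release them when GnRH raises intracellular calcium. Granins condense with the hormones in the forming granule, a proton pump acidifies its lumen, and transmembrane proteins of the granule take part in its storage and exocytosis. Granules that have been released are replaced by new synthesis of cargo and membrane proteins.

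Transcripts were counted by unique molecular identifiers (UMIs), a tag that lets copies made by PCR be merged into one count. The vehicle library held 1992 cells with 1126320 UMIs of the analysed genes, and the GnRH library 1889 cells with 1118763. The median was 543.5 UMIs per cell after vehicle and 561 after GnRH. The genes analysed here, 3.81% of the gene list, lie on chromosome 1 wherever they could be placed, so these totals are not the depth of the libraries. Levels are UMIs per 1000000 analysed UMIs (CPM). A transcript yields its UMI at the 3′ end whatever its length, so levels were not divided by length. Intervals in parentheses are exact 95% intervals of counting error and leave out the spread between cells and between cultures. The 20 markers looked for were those of gonadotropes, other pituitary cells and non-endocrine cells, and the neuroendocrine granule genes Chga, Chgb, Pcsk1 and Cpe. Only the fibroblast collagen gene Col3a1 was among the analysed genes, with 0 UMIs in both libraries. The identity of the cells was therefore taken from the labels, and the background of free RNA could not be measured, for want of a cell type that lacks the granule genes. Cells were named by serial number and the barcode list was not used, so barcodes shared by the libraries were not counted.

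The 5 genes stood at very different levels. Scg2 held 7.01% of the analysed UMIs after vehicle and 6.78% after GnRH, and was the third most abundant gene in both libraries. Ecel1 followed at rank 65 and then 63, and Atp6v1h at rank 141 and then 144. Ptprn went from rank 193 to rank 91 and so passed Atp6v1h. Resp18 was barely detected, and the gene set was for practical purposes a set of 4 expressed genes. Neighbours in this order differed by more than their counting intervals in each library.

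**Figure D1:**
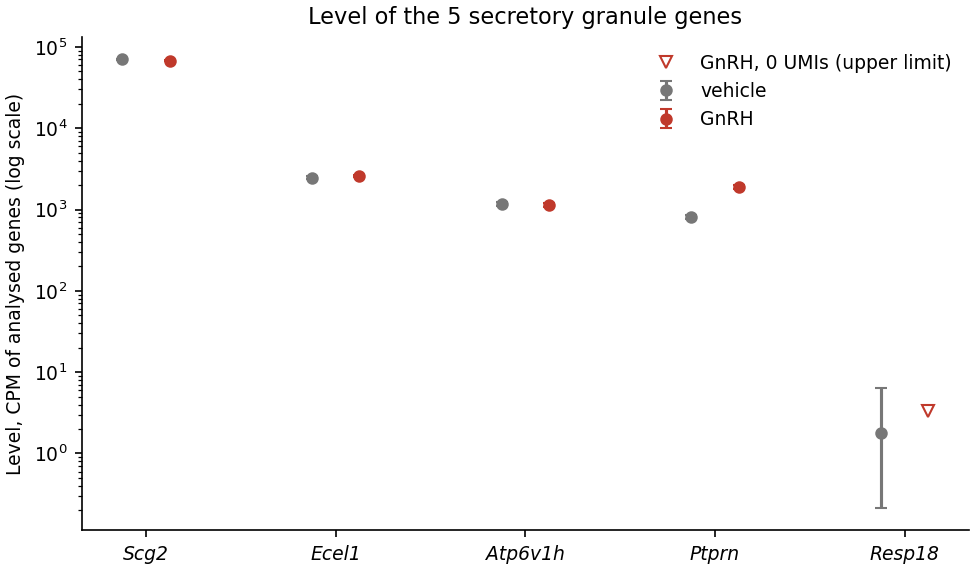
Level of each gene in CPM of the analysed genes (log scale) in the vehicle (grey) and GnRH (red) library, with exact 95% counting intervals. Scg2 lies at 70103 and 67837 CPM, only Ptprn shows a wide gap between them (813 and 1892 CPM), and Resp18 is at 1.78 CPM after vehicle and at an upper limit of 3.30 CPM after GnRH.

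Promoter sequences were examined because GnRH signals in gonadotropes through kinases that act on cAMP response element (CRE), AP-1, EGR and serum response factor sites. RefSeq windows of 250 bases upstream of the start site (GRCm38.p6, both strands searched) were found for 4 of the 5 genes, with a pair of windows for Ptprn and none for Atp6v1h. The motifs were the full CRE (TGACGTCA), its half-site (TGACG), AP-1 (TGANTCA), EGR (GCGNGGGCG) and the CArG box. The full CRE contains the half-site on both strands. Scg2 had 1 full CRE, from 68 to 61 bases upstream of the RefSeq start, and Ptprn had half-sites at 117 to 113 and at 80 to 76 bases upstream of the outer of its RefSeq starts. The stretches that hold these matches are given for the most abundant gene and for the gene with the largest ratio, in the direction of transcription and with the motif in capitals. Both genes are on the minus strand. The Scg2 stretch, at chr1:79440076-79440105, lies in the untranslated first exon of the longest GENCODE model and upstream of a shorter one. The Ptprn stretch, at chr1:75264214-75264433, lies outside every annotated Ptprn exon but within the gene, since the outermost GENCODE model starts at 75264502, 294 bases upstream of the RefSeq start used here.

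Scg2: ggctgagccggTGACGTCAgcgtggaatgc

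Ptprn: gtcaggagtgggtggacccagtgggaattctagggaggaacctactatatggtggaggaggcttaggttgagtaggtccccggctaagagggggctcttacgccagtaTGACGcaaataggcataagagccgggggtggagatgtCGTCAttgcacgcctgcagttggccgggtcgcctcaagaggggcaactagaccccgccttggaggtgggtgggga

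A full CRE was present in 1.55% of all 32851 promoter windows and in 3.70% of the 405 windows of analysed genes with at least 100 UMIs. The half-site was present in 17.8% and 31.4%. None of the 5 motifs was found in the inner Ptprn window, in Resp18 or in Ecel1, and neither AP-1, EGR nor CArG letters were found in any window of the 4 genes. AP-1 was present in 6.75% of all windows, EGR in 4.70% and the CArG box in 1.47%. A match describes the letters in this window and is neither a shown binding site nor a cause.

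Scg2 encodes secretogranin II, a granin of the dense-core granule and the precursor of secretoneurin. The gene (ENSMUSG00000050711, chromosome 1, 79434669 to 79440120, minus strand, GRCm38) had 78958 UMIs after vehicle and 75893 after GnRH. These corresponded to 70103 CPM (69615 to 70593) and 67837 CPM (67355 to 68321), a log2 ratio of GnRH over vehicle of -0.05 (-0.06 to -0.03). The 2 libraries thus differed by less than 1.5-fold, and the sign depended on the scaling, with a log2 ratio of 0.0475 under median-of-ratios. All 1992 and all 1889 cells had at least 1 Scg2 UMI, with medians of 34 and 35 per cell and highest values of 221 and 222.

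Scg2 was present in every cell but in very unequal amounts. It made up 2.63% of the analysed UMIs of a cell at the 5th percentile of vehicle-treated cells, 6.42% at the median and 12.9% at the 95th percentile. The same percentiles were 2.40%, 6.26% and 12.7% after GnRH. Cells were put at equal depth by drawing 300 of the UMIs of each cell at random (thinning), for which 219 vehicle-treated and 108 GnRH-treated cells had too few. The 5th, 50th and 95th percentiles were then 7, 19 and 39 Scg2 UMIs after vehicle and 7, 19 and 38 after GnRH. Scg2-poor cells, under 10% of the library median as counted, numbered 11 of 1992 (0.552%, 0.276 to 0.986%) and 12 of 1889 (0.635%, 0.329 to 1.11%). This cut on counts does not separate shallow cells from cells with little Scg2. At equal depth the lowest count was 1 Scg2 UMI, in 2 of 1773 vehicle-treated and 2 of 1781 GnRH-treated cells. The distribution was alike in shape in the 2 libraries.

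Ptprn encodes a catalytically inactive receptor-type tyrosine phosphatase that spans the granule membrane and is a known autoantigen of islet cells. The gene (ENSMUSG00000026204, chromosome 1, 75247027 to 75264502, minus strand) had 916 UMIs after vehicle and 2117 after GnRH. Its level was 813 CPM (761 to 868) and 1892 CPM (1813 to 1975), a 2.33-fold difference (2.15 to 2.52). Of the 409 genes with at least 100 UMIs over both libraries, 1.22% were at least 2-fold higher after GnRH and 0.0% at least 2-fold lower. Ptprn was the single one of the 4 expressed granule genes among them, and its ratio was the fifth highest of the 409 genes. The median log2 ratio of these genes was -0.09 (interquartile range -0.19 to 0.00). Relative to this median the log2 ratio of Ptprn was 1.31, against 0.05 for Scg2, 0.17 for Ecel1 and 0.03 for Atp6v1h.

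**Figure D2:**
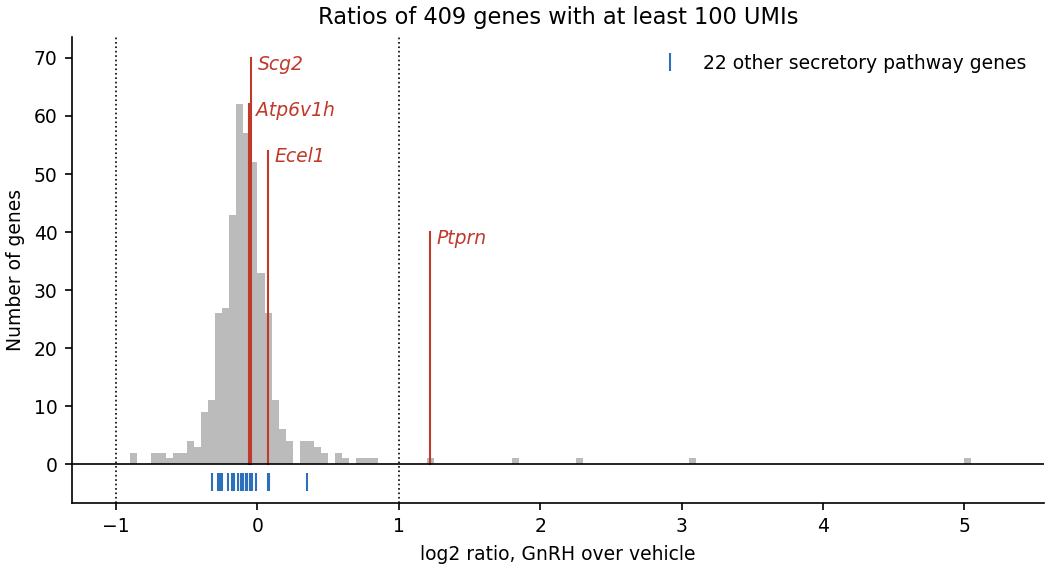
Histogram of the log2 ratio of GnRH over vehicle for the 409 genes with at least 100 UMIs, with 2-fold marked by dotted lines, the granule genes by red lines (whose heights carry no value) and 22 other secretory pathway genes by blue ticks. Ptprn, at 1.22, stands outside the bulk of genes, and Scg2 (-0.05), Atp6v1h (-0.06) and Ecel1 (0.07) lie within it.

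More cells had a Ptprn transcript after GnRH, and cells with several were also more frequent. At least 1 UMI was seen in 33.1% of vehicle-treated cells (31.0 to 35.2%) and 53.8% of GnRH-treated cells (51.5 to 56.1%). At equal depth these shares were 19.7% (17.9 to 21.7%) and 37.2% (34.9 to 39.5%). Cells with 3 or more Ptprn UMIs at equal depth made up 0.564% (0.271 to 1.03%) after vehicle and 4.38% (3.48 to 5.44%) after GnRH. Poisson counting at the mean of each library, 0.240 and 0.574 UMIs per cell, gave 0.193% and 2.06%, below the interval in each library. Cells without a Ptprn UMI made up 80.3% after vehicle (78.3 to 82.1%), an interval that includes the 78.6% from Poisson counting. After GnRH they made up 62.8% (60.5 to 65.1%) against 56.3%, which lies below the interval. The highest count in a single cell as counted was 9 after vehicle and 15 after GnRH.

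The Ptprn ratio was also examined by depth, since a larger part of the vehicle library was shallow. Cells of both libraries were put into 4 depth classes of like size by their UMIs of all analysed genes but the members. The limits were at 406, 512 and 647. These totals include Btg2, with 1049 UMIs after vehicle and 33510 after GnRH, so Btg2 adds to the depth of GnRH-treated cells. The log2 ratio of Ptprn was 1.07 (0.75 to 1.39) in the shallowest class and 1.33 (1.07 to 1.59), 1.24 (1.02 to 1.46) and 1.19 (1.01 to 1.37) in the deeper ones. It was above 1 in each class, and the intervals overlapped.

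Reads of an adjacent gene could be assigned to Ptprn, so its surroundings were compared. Of 17 annotated genes within 100 kb, 15 were among those analysed and 10 had at least 100 UMIs. Their log2 ratios ran from -0.24 for Ankzf1 to 0.06 for Glb1l, and 0 of the 10 were past 1.5-fold in either direction. The closest of the 10 was the chaperone gene Dnajb2, 1.34 kb away, with 687 and 705 UMIs and a log2 ratio of 0.05. Gm28294, an antisense gene within Ptprn (75252322 to 75257427), had 0 UMIs after vehicle and 1 after GnRH. Whether reads were counted by strand was not given in the sources used here, so antisense reads cannot be told apart from those of Ptprn.

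Resp18 encodes a regulated endocrine-specific protein of the granule lumen that is related to the luminal part of Ptprn. The gene (ENSMUSG00000033061, chromosome 1, 75272199 to 75278415, minus strand) lies 7.70 kb from Ptprn on the same strand. It had 2 UMIs after vehicle, 1.78 CPM (0.215 to 6.41), and 0 after GnRH, where the upper limit was 3.30 CPM. A UMI was present in 2 of 1992 cells (0.10%) and in 0 of 1889 cells. By the floor of 3 counts this allows up to 0.159% of cells with a UMI, and the exact 95% interval reaches 0.195%; neither limits the share of cells that express the gene. Both counts were under the floor of 3, so no ratio was formed. The antisense gene that overlaps Resp18, Gm28902, had 0 UMIs in both libraries. At this depth Resp18 was at the limit of detection, while its neighbour Ptprn had at least 916 UMIs in each library.

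Ecel1 encodes a membrane protein of the neprilysin family of metallopeptidases and is best known from neurons. The gene (ENSMUSG00000026247, chromosome 1, 87147655 to 87156521, minus strand) had 2778 and 2900 UMIs, or 2466 CPM (2376 to 2560) after vehicle and 2592 CPM (2499 to 2688) after GnRH. The log2 ratio was 0.07, with an interval of -0.0038 to 0.147. It was 0.167 under median-of-ratios scaling and 0.163 under TMM, both above this interval. At equal depth 46.5% of vehicle-treated cells (44.1 to 48.8%) and 46.8% of GnRH-treated cells (44.5 to 49.2%) had an Ecel1 UMI, so the share of cells was nearly the same. Cells without one made up 53.5% and 53.2%, against 48.2% and 46.7% from Poisson counting. By depth class its log2 ratio was -0.13 (-0.36 to 0.09) and -0.07 (-0.24 to 0.09) in the shallower classes and 0.14 (-0.01 to 0.29) and 0.15 (0.03 to 0.27) in the deeper ones. All of these intervals but the last included 0. The only neighbours within 100 kb with at least 100 UMIs were Dis3l2 and Eif4e2, with log2 ratios of -0.12 and -0.07.

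Atp6v1h encodes subunit H of the cytosolic sector of the vacuolar proton pump, which acidifies granules and also endosomes and lysosomes in most cell types. The gene (ENSMUSG00000033793, chromosome 1, 5070018 to 5162529, plus strand) had 1321 and 1256 UMIs, 1173 CPM (1110 to 1238) and 1123 CPM (1061 to 1187). The log2 ratio was -0.06 (-0.18 to 0.05), and 0.03 under median-of-ratios scaling. It was -0.01, 0.17, -0.12 and -0.16 from the shallowest to the deepest class, with intervals that all included 0. At equal depth 30.3% (28.2 to 32.5%) and 28.7% (26.6 to 30.9%) of cells had a UMI, and the intervals overlapped. The gene overlaps Rgs20 on the opposite strand, which had 21 and 25 UMIs.

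**Figure D3:**
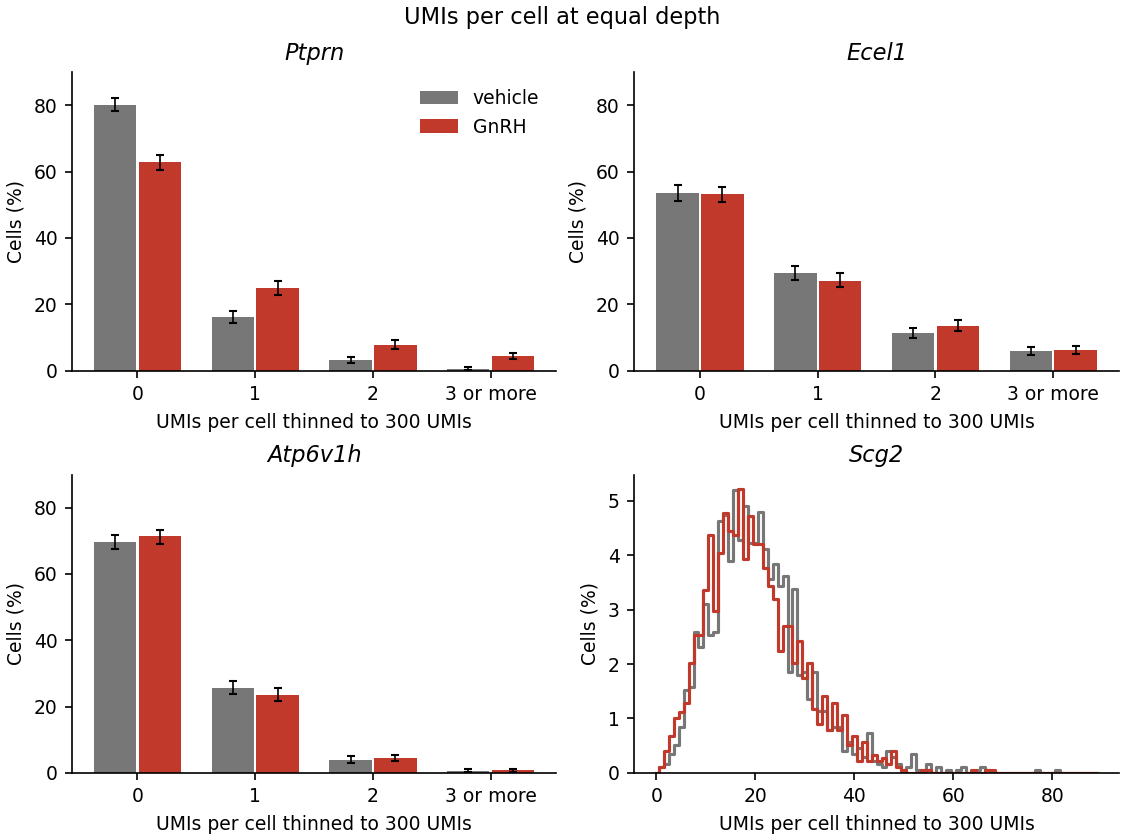
Share of cells (%) by UMIs per cell after thinning to 300 UMIs, for Ptprn, Ecel1 and Atp6v1h as bars with exact 95% intervals and for Scg2 as an outline, in 1773 vehicle (grey) and 1781 GnRH (red) cells. Cells with 0 Ptprn UMIs go from 80.3% after vehicle to 62.8% after GnRH, and the distributions of Ecel1, Atp6v1h and Scg2 nearly coincide.

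The spread between cells was compared with that of counting. Spread was taken as the squared coefficient of variation divided by its expectation, which allows for Poisson counting and for the unequal totals of cells, and was computed where the mean reached 0.1 UMI per cell. The median gene was at 1.07 in both libraries, and 5.81% of 344 genes in the vehicle and 6.73% of 342 in the GnRH library were at 1.5 or more. Scg2 was at 2.40 and 2.55, rank 4 and rank 6 from the top. Ecel1 was at 1.73 and 1.93. Ptprn was at 1.35 after vehicle, under 1.5, and at 1.87 after GnRH, rank 31 and then rank 11. Atp6v1h was at 1.02 and 1.03, near the value that counting alone gives. At equal depth, with each cell thinned to 300 UMIs, Ecel1 was at 1.41 in both libraries and so under 1.5, Ptprn was at 1.18 and 1.62, and Scg2 was at 4.70 and 4.52. This ratio grows with the mean for the same relative variation, and the mean of Ptprn was 0.460 UMIs per cell after vehicle and 1.12 after GnRH. The coefficient of variation of Ptprn was 1.78 after vehicle and 1.39 after GnRH. The excess of the squared coefficient over its expectation, a measure added after the ratios had been seen, was 0.809 and 0.897 for Ptprn, 0.647 and 0.735 for Ecel1, 0.270 and 0.256 for Scg2 and 0.0409 and 0.0559 for Atp6v1h after vehicle and GnRH. By this excess Ptprn was the most uneven of the 4 genes and Scg2 was below Ecel1, so the order of Scg2, Ecel1 and Ptprn depended on the measure, and Atp6v1h was lowest by both.

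**Figure D4:**
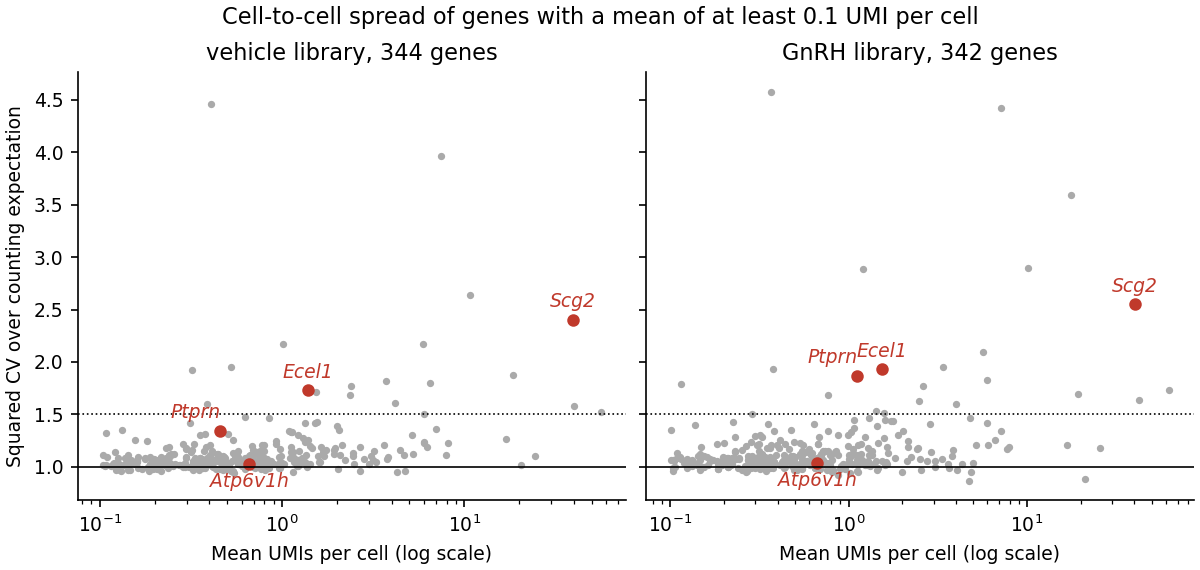
Squared coefficient of variation over the counting expectation against mean UMIs per cell (log scale) for genes whose mean reached 0.1, in the vehicle and the GnRH library. The dotted line marks 1.5: Scg2 (2.40 and 2.55) and Ecel1 (1.73 and 1.93) lie above it in both panels, Ptprn above it in the GnRH library only (1.35 and 1.87), and Atp6v1h lies at 1.02 and 1.03. At equal depth Ecel1 is under the line, at 1.41 in both libraries.

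Transcripts of the 4 expressed genes were close to uncorrelated across cells. Pearson r between the 4 expressed genes was taken across thinned cells as the mean over 20 thinnings. These values describe cells that share a library, and sparse counts hold r down. The 6 pairs gave between -0.041 and 0.017 over both libraries. Scg2 with Ptprn was at -0.027 after vehicle and -0.0016 after GnRH, and Scg2 with Ecel1 at 0.0080 and 0.017. For comparison, the central 95% of all 41328 pairs of 288 genes lay between -0.043 and 0.039 after vehicle. After GnRH it lay between -0.043 and 0.040, and all 6 pairs were within these ranges. When cells were instead brought to 250 UMIs of the other genes, so that Scg2 took no room in a fixed total, Scg2 with Ecel1 was at 0.030 and 0.048 and Scg2 with Atp6v1h at 0.037 and 0.033, and Scg2 with Ptprn at -0.011 and 0.012. The 0.048 is above the range quoted for GnRH, but the range over all pairs was not computed at that depth.

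The genes with the highest r were then listed for each granule gene. For Scg2 the highest r was with Serpine2, a secreted serine protease inhibitor, at 0.099 after vehicle and 0.11 after GnRH. St18 (0.078) and Cox5b (0.069) followed in the vehicle library, and Cntnap5a (0.10) and Khdrbs2 (0.088) in the GnRH library. The lowest was with the ribosomal protein gene Rpl37a, at -0.30 and -0.26, the lowest of all pairs in each library. Both transcripts are abundant, and in a fixed total of UMIs each leaves less room for the other, whose part in this value was not tested. Ecel1 was highest with Akr1cl, of the aldo-keto reductase family, in both libraries (0.16 and 0.15), was also positive with Tns1 (0.11 and 0.090) and Cntnap5a (0.11 and 0.080), and was lowest with Igfbp2 (-0.11 and -0.13). For Atp6v1h no gene was above 0.052. Its first 3 genes were Ptpn18, Sdhaf4 and Actr3 after vehicle and Rhbdd1, Aamp and Cops7b after GnRH.

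For Ptprn, as for Atp6v1h, none of the first 3 partners was the same in the 2 libraries. After vehicle its highest r was with Igfbp2 (0.17), Igfbp5 (0.073) and Itm2c (0.056), where the values after GnRH were 0.026, 0.013 and -0.047. After GnRH it was highest with Btg2, an antiproliferative immediate early gene (0.18), and Coq10b (0.14), where the values after vehicle were 0.034 and 0.0044, and with Slc4a3 (0.067). Btg2 itself had a mean of 0.287 UMIs per thinned cell after vehicle and 9.04 after GnRH, so its r in the vehicle library rested on few UMIs. With Neurl3 and Fhl2, which were likewise past 2-fold after GnRH, Ptprn gave 0.011 and -0.035 after GnRH. Neurl3 had only 13 UMIs after vehicle and 110 after GnRH, and Fhl2 had 207 and 723. The r with Neurl3 thus rested on few UMIs and does not show whether Ptprn varies with it. Ecel1 was correlated with Btg2 after GnRH as well (0.15, against 0.016 after vehicle), though not with Ptprn (-0.012). Scg2 and Atp6v1h gave 0.045 and -0.030 with Btg2 after GnRH.

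The relation to Btg2 was drawn out over thinned GnRH-treated cells in 4 classes of Btg2 UMIs, a division chosen after the correlations had been seen and given as a description. The classes held 499 cells with 0 to 3 Btg2 UMIs, 477 with 4 to 8, 369 with 9 to 13 and 436 with 14 to 43. Mean Ptprn was 0.399 UMIs per cell (0.345 to 0.458) in the lowest class, then 0.495 and 0.593, and 0.844 (0.760 to 0.935) in the highest. The share of cells with a Ptprn UMI went from 27.3% to 49.3% between the lowest and the highest class. The mean of all thinned vehicle-treated cells was 0.240 for Ptprn, below the lowest class, whereas it was 0.729 for Ecel1 and 20.7 for Scg2, above the lowest class. Mean Ecel1 went from 0.539 (0.477 to 0.607) over 0.759 and 0.813 to 0.972 (0.882 to 1.07), with shares of 36.3% and 54.6% at the ends. Atp6v1h was at 0.359, 0.363, 0.360 and 0.30, and Scg2 at 18.7 (18.3 to 19.1), 19.9 (19.6 to 20.4), 20.8 (20.4 to 21.3) and 20.4 (20.002 to 20.853). Cells with more Btg2 thus held more Ptprn and more Ecel1. Scg2 was lowest where Btg2 was lowest, by a smaller relative step, and the intervals of Atp6v1h overlapped between all classes. Thinned cells have a fixed total of UMIs, so Btg2 itself, with 14 to 43 UMIs in the highest class, left less room there for every other gene. How much this lowered the means of Scg2, Atp6v1h, Ptprn and Ecel1 in the higher classes was not tested. The means are therefore shares of this total, and a flat course does not show an unchanged level.

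**Figure D5:**
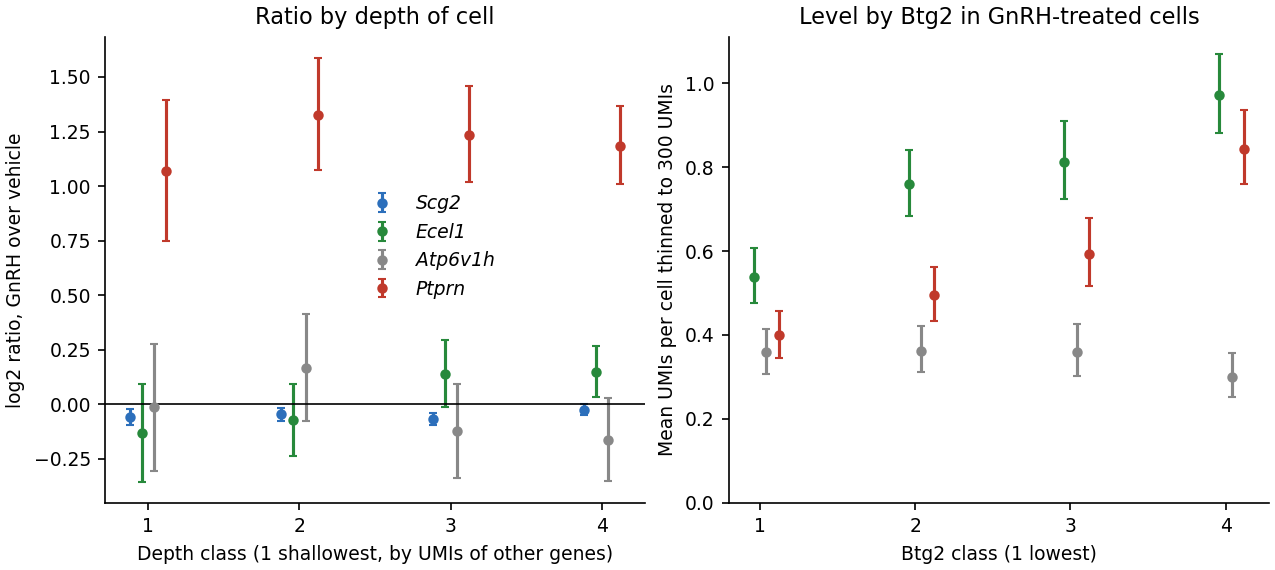
Left, log2 ratio of GnRH over vehicle for Scg2, Ecel1, Atp6v1h and Ptprn in 4 depth classes of cells by UMIs of other genes. Right, mean UMIs per thinned cell of Ecel1, Atp6v1h and Ptprn (colours as on the left) in 4 classes of GnRH-treated cells by Btg2 UMIs, with exact 95% counting intervals in both panels. Ptprn stays above 1 at each depth, and both Ptprn (0.399 to 0.844) and Ecel1 (0.539 to 0.972) are highest where Btg2 is highest.

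The wider secretory pathway was followed with a list of 40 genes, from translocation into the endoplasmic reticulum and glycosylation to vesicle budding, transport and exocytosis. The list holds the 5 granule genes. Of the 40, 36 were among the analysed genes and 26 had at least 100 UMIs. Ptprn was the only one past 1.5-fold in either direction, while 2.44% of all 409 genes were at least 1.5-fold higher and 1.71% at least 1.5-fold lower. The 22 genes of the list other than the granule genes had a median log2 ratio of -0.11, beside -0.09 over all 409 genes, and ran from -0.32 for Tgfbrap1 to 0.35 for Chpf. Of these, 10 were above and 12 below the median of all genes. The most abundant were the membrane protein gene Itm2c with 3906 and 3585 UMIs (log2 ratio -0.11, -0.18 to -0.05), Vps4b, an ATPase of endosomal sorting, with 2848 and 2688 (-0.07), and Mgat5, a Golgi glycosyltransferase, with 2767 and 2431 (-0.18). Pam, which amidates peptides inside granules, had 5 and 7 UMIs and so, like Resp18, gave no usable ratio.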

How the data were processed

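LβT2 cells received GnRH (2 nM) or vehicle over 40 min, and 1 library of each was made by droplet-based 3′ SC RNA-seq. The authors deposited raw UMI counts per gene and cell without normalization. The submitters' processing notes name Cell Ranger 1.3 and mm10. Annotation, use of strand and any equalization of depth were not given in the sources used here. The first 1068 of 27998 listed genes were analysed, an incomplete last row was left out, and the barcode list was not used. Positions were taken from GENCODE M21 (GRCm38) by identifier and promoters from RefSeq.

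The 5 members, the list of 40 genes and all measures were chosen with earlier results of these data known. Genes named were the members, list genes past 1.5-fold with at least 100 UMIs, the 3 most abundant other list genes, the 3 genes with the highest r per member and library, expressed neighbours within 100 kb, and Btg2, Coq10b, Neurl3 and Fhl2. Extremes of a range, the lowest r, Pam and the antisense genes were named after their values were seen.

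UMIs were summed per library and divided by the sum over the analysed genes (CPM). Intervals were exact Poisson for sums, Clopper-Pearson for shares and conditional binomial for ratios, and cover counting error only. With cells of 1 library sharing their culture, no test was made. Cells were thinned to 300 UMIs with a fixed seed, and correlations were averaged over 20 thinnings. Scripts ran in Python 3.11.15 (numpy 2.4.6, scipy 1.17.1, pandas 2.3.3), with TMM factors from edgeR 4.0.16 in R 4.3.3, and were tested on simulated data. Doublets were not called, and an alternative without the top 5% of cells by UMIs was computed instead, beside other scalings, count minimums, depths and correlation measures.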

Additional observations from a re-analysis of the deposited data

How the results depend on the processing

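No paired analysis was possible because there was a single library per treatment and nothing was tested. The log2 ratio of Ptprn lay between 1.19 and 1.31 under all 8 alternatives of scaling, cell filter and thinning. That of Scg2 became 0.0475 under median-of-ratios and 0.0442 under TMM. It became 0.0195 without scaling and -0.0049 with totals that omit Btg2, so it has no settled sign. That of Ecel1 became 0.17 and 0.16 under median-of-ratios and TMM, above its interval. Atp6v1h became 0.03 under both and 0.0038 unscaled, within its interval. These scalings moved the median of all genes by less than 0.1. With a minimum of 20 UMIs or of 1 UMI, 2 list genes were at least 1.5-fold higher, because Ica1l with 7 and 14 UMIs was added (interval -0.40 to 2.56). Shares of cells with a UMI after vehicle and GnRH became 19.7% and 37.2% for Ptprn, 46.5% and 46.8% for Ecel1 and 30.3% and 28.7% for Atp6v1h when thinned. With at least 2 UMIs required they became 8.48% and 27.0%, 34.7% and 36.9%, and 15.2% and 15.5%. Both follow from fewer UMIs or a higher bar. The squared CV of Scg2 over expectation became 18.4 and 16.9 under plain Poisson, which ignores the totals of cells. Thinned, it became 4.70 and 4.52, and that of Ecel1 became 1.41 in both libraries, under the threshold of 1.5. The cause was not tested. The median r of the 6 pairs lay between -0.012 and 0.0014 after vehicle and between -0.0029 and 0.0081 after GnRH over the alternatives. Limits are the single library per treatment, the part of the transcriptome analysed, and the low counts of Resp18 and Pam.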
